A study of Mus musculus with 4 samples.

Results

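Ribosome biogenesis and RNA polymerase I (Pol I) factors are the proteins that transcribe ribosomal RNA in the nucleolus and cut, modify and fold it into ribosomal subunits. They were taken from a ribosome profiling table by gene symbol alone (families such as Utp, Nop, Nol, Noc, Rrp, Gnl and Polr1, and single factors such as Heatr1, Nat10 and Fbl), which gave 48 of the 4878 genes in the table. By role, 2 are Pol I subunits, 22 act on the small ribosomal subunit, 16 on the large subunit, 3 are core proteins of small nucleolar ribonucleoproteins (snoRNPs), and 5 are other nucleolar proteins. Ncl, Npm1 and some other members of these families were not analysed here.

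The cells were mouse embryonic fibroblasts, primary connective tissue cells grown from embryos, at passages 5 to 8. Cells of one group were transfected with a negative control siRNA and those of the other with an siRNA, labelled X+18, that targets eIF1A, a factor of translation initiation that binds the small subunit. Lipofectamine RNAimax was the reagent in both. There were 2 libraries per group, and the sources used here do not state the strain, age or sex of the embryos. Nothing in the labels ties replicates to separate cultures, so the p-values measure only how far these libraries spread, and that spread may be technical. The genes for eIF1A itself were not analysed here, so the depletion was not checked in these libraries.

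In ribosome profiling, RNase I digests exposed RNA and the fragments that ribosomes protect (footprints) are sequenced. Each value is the authors' normalized read number of a gene, listed apart for the coding sequence and for the 5' UTR, the leader ahead of the start codon. A coding level joins mRNA amount and translation, since RNA-seq was not used here, and in such bulk samples more expressing cells and more footprints per cell cannot be told apart. The listed genes held 280649 to 617663 reads per library, and the knockdown libraries were the smaller ones. Of 13 fibroblast markers 4 were listed (Col5a1, Fn1, S100a4 and Vim), with summed coding levels of 4824 and 6876 in the controls and 3690 and 3173 in the knockdown libraries, and their part in the results was not tested. Of 5 epithelial markers Dsp was listed (109 and 146 against 82.4 and 71.8) and of 3 neuronal markers Map2 (65.9 and 55.3 against 15.3 and 6.38). No endothelial, leukocyte or skeletal muscle marker was listed.

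As background, ribosome production starts when Pol I transcribes one long precursor RNA. The small subunit processome, built around the U3 snoRNP, folds and cuts its front part, while other factors assemble the large subunit on the remainder. The box C/D and box H/ACA snoRNPs methylate and pseudouridylate the RNA. Growing fibroblasts spend much of their transcription and translation on this pathway, and the transcription factor Myc is known to induce many of its genes by binding the E-box.

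Promoters of the 48 genes, called members below, were read for known motifs only to describe them. The stretches that hold the E-box are shown here. RefSeq promoters (GRCm38.p6, the mm10 build, from 250 bases before to 50 after the start) were given for 38 of the 48 genes, 1 of the 48 being matched by an older name. The E-box, CACGTG, which reads the same on both strands, was in 8 of the 38 (21.1%), against 13.5% of 4003 promoters of listed genes and 8.09% of all 27025 genes with a promoter. The stretches run in the direction of the gene, and capitals mark the E-box.
Imp4, chr1:34439696-34439725, plus strand: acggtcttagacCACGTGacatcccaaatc
Nop2, chr6:125131811-125131840, plus strand: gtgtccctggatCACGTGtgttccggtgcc
Nol11, chr11:107189407-107189436, minus strand: cttgagcgttcgCACGTGgtctagactcca
Utp18, chr11:93885769-93885798, minus strand: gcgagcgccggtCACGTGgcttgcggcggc
Pes1, chr11:3963965-3963994, plus strand: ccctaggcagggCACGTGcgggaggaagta
Tsr1, chr11:74898092-74898121, plus strand: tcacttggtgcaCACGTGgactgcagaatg
Utp20, chr10:88826765-88826794, minus strand: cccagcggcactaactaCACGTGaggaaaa
Mybbp1a, chr11:72441347-72441376, plus strand: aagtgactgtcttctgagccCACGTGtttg

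The first base of the E-box lay before the RefSeq start in Imp4 (position -121), Nop2 (-60), Nol11 (-43) and Utp18 (-20), and after it in Pes1 (3), Tsr1 (25), Utp20 (38) and Mybbp1a (41). Of the 8 genes with the E-box 6 rose in coding reads, and of the other 30 with a promoter entry 19 rose, with median log2 changes of 1.45 and 1.18. The core of the ETS site, CCGGAAG on either strand, was in 42.1% of the member promoters, 24.1% of those of listed genes and 9.93% of all. The GC box, GGGCGG on either strand, was in 68.4%, 74.9% and 38.2% in the same order. These matches describe letters in a window and were not tested.

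Coding footprints of most of these factors were higher in the eIF1A knockdown libraries, and no member fell. Of the 48 genes 29 rose (60.4%), while 10.6% of all 4619 genes tested rose and 18.7% fell (limma on log2 of the value plus 1, Benjamini-Hochberg adjusted p below 0.05 over all genes tested). Rrp12 rose by 2.97 on the log2 scale and Nip7 by 2.72, an order that turned with edgeR (3.05 and 3.17). Rrp9, Heatr1, Nop2, Mybbp1a, Nop56, Nol12, Utp14a and Rrs1 also rose by over 2 on the log2 scale. The median log2 change of the members was 1.15, against -0.16 for all genes tested, and 44 of the 48 had a change above 0. Every member passed the filter on low values, a mean of at least 10 normalized reads. Nip7, Rrp9, Nol12, Nop16 and Imp3 had control means under 10 and passed only through the knockdown libraries. With no filter 28 of the 48 genes and 10.3% of all genes rose.

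**Figure D1:**
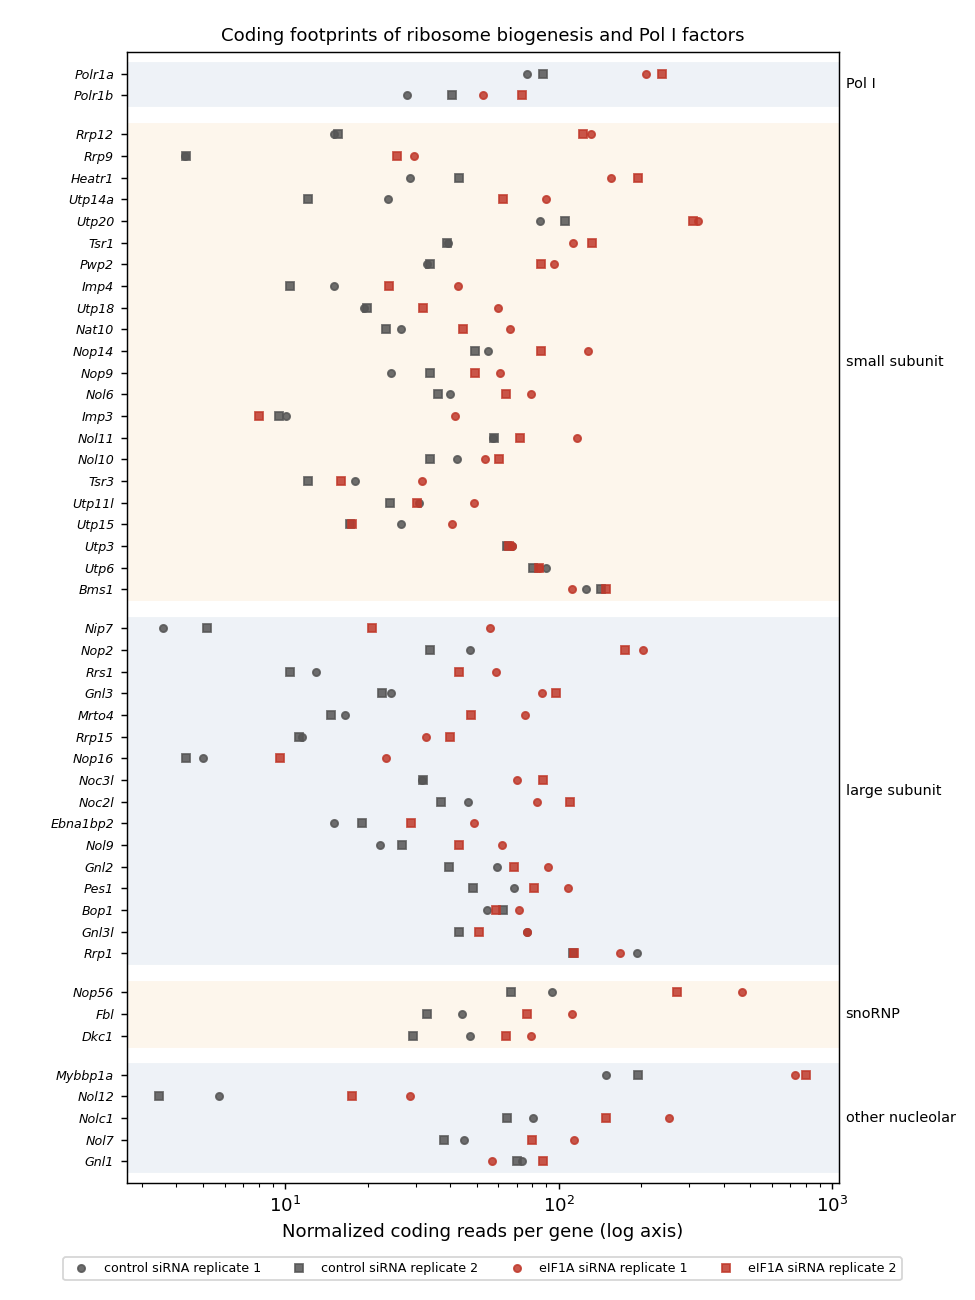
Normalized coding reads of the 48 genes on a log axis, by role, with grey symbols for control siRNA and red for eIF1A siRNA (circles, replicate 1; squares, replicate 2). Both red symbols lie to the right of both grey ones in 37 genes, while those of Utp3, Utp6 and Bms1 lie among each other.

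In 37 of the 48 genes (77.1%) each knockdown library had a higher level than each control, and in 0 a lower one. Over all genes tested these shares were 26% and 40.1%. The groups did not overlap in any of the 29 genes that rose, and in 8 of the 19 others they did not overlap either. The ratio of the group means was at least 2 in 30 genes and at least 4 in 10.

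The Pol I subunits give the top of the pathway. Polr1a, the catalytic subunit that with its partner forms the active centre of Pol I, had 76.7 and 87.3 normalized coding reads in the controls, always given in the order of replicates 1 and 2, and 208 and 238 under the eIF1A siRNA. Its mean rose 2.72-fold, from 82.0 ± 7.51 (SD, n = 2) to 223 ± 20.7, or by 1.43 ± 0.29 (SE) on the log2 scale (limma adjusted p = 0.00201). Polr1b, that partner subunit, had 27.9 and 40.6 reads in the controls and 52.9 and 73.4 in the knockdown libraries. Its groups did not overlap, but its log2 change of 0.87 ± 0.34 did not pass the test (limma adjusted p = 0.0668).

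Of the 22 small subunit factors 12 rose, with a median log2 change of 0.96 over all 22. Rrp12, a HEAT-repeat protein that takes part in the export of pre-ribosomes (chromosome 19, 41859483 to 41896153, mm10), had 15.05 and 15.6 coding reads in the controls and 131 and 123 in the knockdown libraries. Both groups were tight and far apart, and Rrp12 rose by 2.97 ± 0.32. It reached 26 reads, coding and leader together, which every listed gene has in some library, only in the knockdown libraries. Its change is therefore given with no p. Heatr1, a processome component also needed for Pol I transcription, had 28.7 and 43.2 reads in the controls against 155 and 195. That is 4.86-fold higher in the knockdown libraries, or 2.27 ± 0.32 on the log2 scale (limma adjusted p = 0.00017).

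Utp20 and Utp14a belong to the same particle. Utp20, a very large scaffold protein (chromosome 10, 88746607 to 88826814), rose from 85.3 and 105 reads in the controls to 321 and 308 (log2 1.72 ± 0.28, limma adjusted p = 0.000539). Its groups lay far apart. Utp14a, which activates an RNA helicase in the processome, rose from 23.6 and 12.1 to 89.5 and 62.2 reads (log2 2.07 ± 0.38, limma adjusted p = 0.00118), and its autosomal copy Utp14b is similar enough that reads could be shared.

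The other small subunit factors that rose span the processome and later maturation. Rrp9, a protein of the U3 snoRNP, had only 6 and 5 whole reads in the controls and 29 and 16 in the knockdown libraries, a log2 change of 2.42. Tsr1, a GTPase-like factor of late small subunit precursors, rose by 1.62, and Pwp2, a subunit of the UTP-B complex, by 1.42. Imp4 (1.29), which joins U3 to the precursor RNA, Utp18 (1.12) of UTP-B, the RNA acetyltransferase Nat10 (1.10), Nop14 (1.00) and Nol6 (0.88) rose less.

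The 10 small subunit factors that did not pass fell into a part above 0 and a part at 0. Nop9 (0.92, limma adjusted p = 0.0538), Nol11 (0.66) and Nol10 (0.59) had both knockdown libraries above both controls. Imp3 (0.86), Tsr3 (0.58), Utp11l (0.48) and Utp15 (0.31) had groups that overlapped, with knockdown replicate 2 the lower of its pair in each. For Imp3, the partner of Imp4, knockdown replicates 1 and 2 had 41.7 and 7.98 normalized reads, from 41 and 5 whole reads, so the pair lay on opposite sides of the controls at 10.03 and 9.51. Utp3 had 67.4 and 64.8 reads in the controls and 67.1 and 65.4 in the knockdown libraries. The processome GTPase Bms1 (-0.05) and Utp6 (-0.01) of UTP-B lay at 0 as well, with 125 and 143 against 112 and 148 reads, and 89.6 and 80.4 against 84.4 and 84.6.

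**Figure D2:**
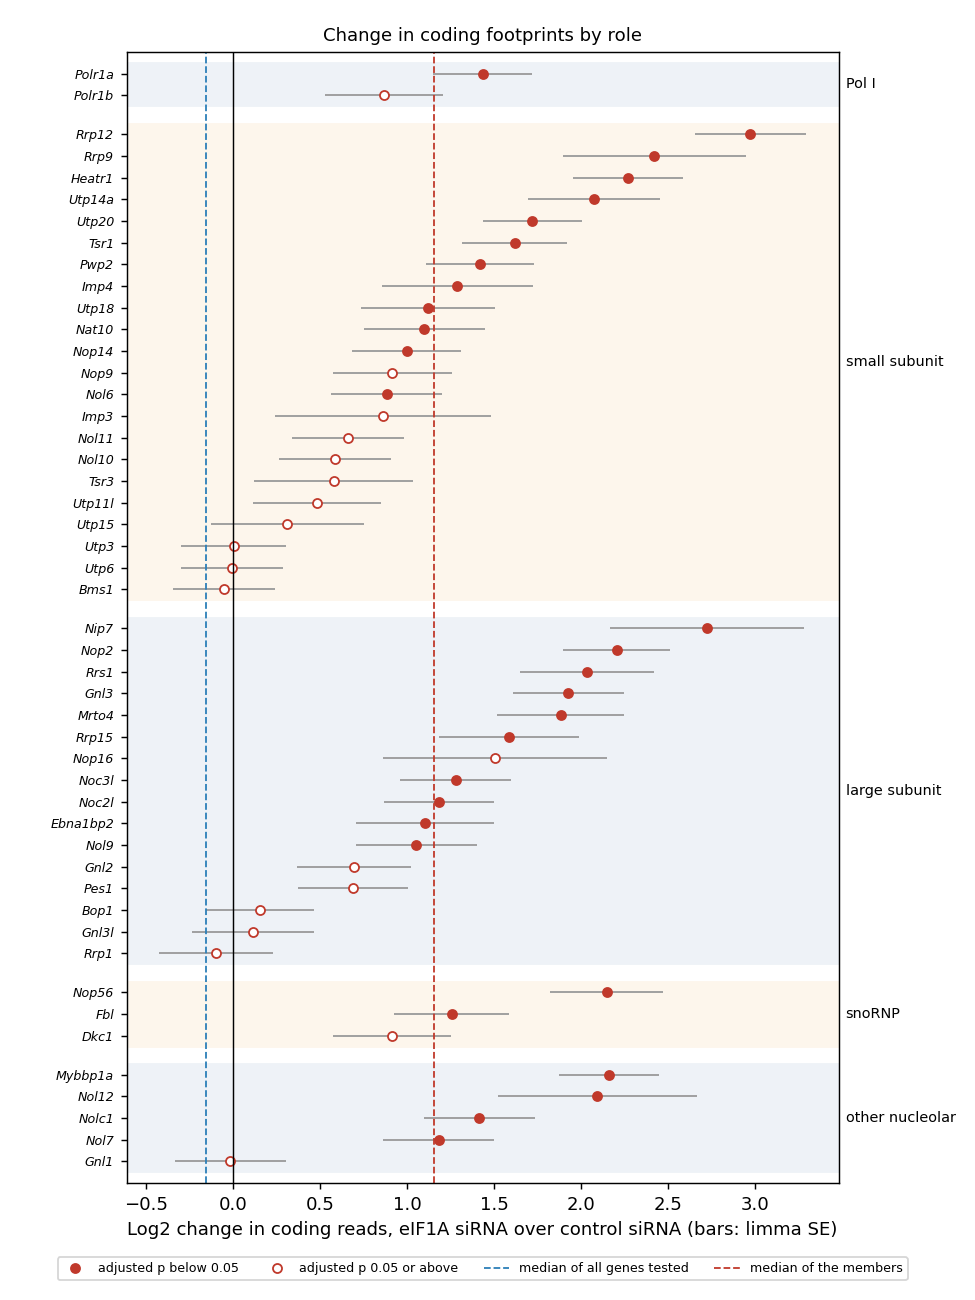
Log2 change in coding reads of each gene, eIF1A siRNA over control siRNA, with limma standard errors as bars, filled dots for genes past the threshold, and dashed lines at the median of all genes tested (-0.16) and of the 48 genes (1.15). Changes run from -0.10 (Rrp1) to 2.97 (Rrp12), and each role holds genes on both sides of the threshold.

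Of the 16 large subunit factors 10 rose, with a median log2 change of 1.23 over all 16. Nop2, an RNA methyltransferase that modifies the large ribosomal RNA (chromosome 6, 125131883 to 125144753), had 47.3 and 33.7 coding reads in the controls and 202 and 174 in the knockdown libraries. It rose 4.65-fold, or by 2.20 ± 0.31 on the log2 scale (limma adjusted p = 0.000164). Gnl3, the nucleolar GTPase also called nucleostemin, had 24.4 and 22.5 reads against 86.4 and 97.4 (log2 1.93 ± 0.32, limma adjusted p = 0.000547). In both genes the lower knockdown library had over 3 times the reads of the higher control.

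Rrs1 and Mrto4 act on particular sites of the large subunit. Rrs1, which helps to bring in the 5S particle, rose from 12.9 and 10.4 reads to 59.0 and 43.1. Its log2 change was 2.03 ± 0.38, given with no p because like Rrp12 it reached 26 reads only in the knockdown libraries. Mrto4, which holds the place of the stalk protein, rose from 16.5 and 14.7 to 75.3 and 47.9 (log2 1.88 ± 0.37, limma adjusted p = 0.00167). Nip7, a factor of pre-ribosomal RNA processing, had 5 and 6 whole coding reads in the controls and 55 and 13 in the knockdown libraries. It passed the filter only through the knockdown libraries, so its log2 change of 2.72 ± 0.56 is given with no p. Its knockdown libraries differed by more than those of the other genes named in this paragraph.

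Rrp15 (1.58), the Noc complex proteins Noc3l (1.28) and Noc2l (1.18), Ebna1bp2 (1.10) and the polynucleotide kinase Nol9 (1.05) rose as well. Pes1 and Bop1, partners in the PeBoW complex, did not pass: Pes1 had 68.8 and 48.4 reads in the controls and 108 and 81.4 in the knockdown libraries (log2 0.69), and Bop1 had 54.5 and 62.2 against 71.2 and 59.1 (log2 0.15). The GTPase Gnl2 (0.69, limma adjusted p = 0.122) did not pass either, though its groups did not overlap. Nop16 (1.51, 7 and 5 whole reads in the controls) did not pass. It met the filter only through the knockdown libraries, so no p is given. Gnl3l, the closest relative of Gnl3, had 76.7 and 43.2 reads in the controls and 76.3 and 51.1 in the knockdown libraries, so its groups overlapped. Rrp1 was at 193 and 112 in the controls and 167 and 113 in the knockdown libraries (log2 -0.10 ± 0.33), and its replicates differed more than its groups.

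Of the 3 snoRNP proteins 2 rose. Nop56, a core protein of box C/D snoRNPs (chromosome 2, 130274367 to 130279313), had 94.6 and 66.6 coding reads in the controls and 467 and 270 in the knockdown libraries, a rise by 2.15 ± 0.32 (limma adjusted p = 0.000299). Fbl, the methyltransferase of the same particle, rose from 44.4 and 32.8 to 112 and 76.6 (log2 1.26 ± 0.33, limma adjusted p = 0.01). Dkc1, the pseudouridine synthase of box H/ACA snoRNPs, had 47.3 and 29.4 against 79.3 and 63.8, groups that did not overlap, and did not pass (log2 0.91 ± 0.34, limma adjusted p = 0.0526).

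Among the other nucleolar proteins 4 of 5 rose. Mybbp1a, a Myb-binding protein that acts on Pol I transcription and processing (chromosome 11, 72441327 to 72451770), had 148 and 194 reads in the controls and 727 and 801 in the knockdown libraries. It rose 4.46-fold, by 2.16 ± 0.29 on the log2 scale (limma adjusted p = 0.000111). Nolc1, a chaperone of snoRNPs, rose from 80.3 and 64.8 to 253 and 148 (log2 1.41 ± 0.32, limma adjusted p = 0.00432). Nol7 rose from 45.1 and 38.03 to 114 and 79.8 (log2 1.18 ± 0.32, limma adjusted p = 0.0119). Nol12 went from 8 and 4 whole reads to 28 and 11. Its log2 change of 2.09 ± 0.57 is given with no p, since it passed the filter only through the knockdown libraries. Gnl1, a GTPase related to the Gnl proteins above, had 73.1 and 70.0 reads in the controls and 57.0 and 87.8 in the knockdown libraries, which lay on opposite sides of the controls.

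The counts of calls fell when a control was left out, while the size of the changes stayed similar. Without control replicate 1 limma called 10 of the 48 and 2.1% of all genes higher, and without control replicate 2 it called 2, Mybbp1a and Rrp12, and 0.0649% of all. The members' medians were then 1.26 and 1.13, and the lone control was assumed to vary like the knockdown libraries, which alone give the spread. Every gene of the table has at least 26 reads, coding and leader together, in some library. In 9 members (Imp3, Imp4, Nip7, Nol12, Nop16, Rrp12, Rrp15, Rrp9 and Rrs1) only a knockdown library reaches that. Of these 9 genes 7 were called higher, and those calls support nothing. Among the other 39 genes 22 rose, with a median of 1.05, while 7.54% of all genes that pass this limit rose. With TMM factors, which move the median of all genes from -0.16 to 0.01 and the calls over all genes from 488 higher and 864 lower to 782 and 768, 36 members rose, their median was 1.32 and all 48 changes were above 0. In 14 of the 48 genes, 8 of those that rose, the RefSeq gene overlaps another protein-coding gene, and the sources used here do not state whether the counting used strand.

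Further genes of the pathway, named in a separate list of factors whose symbols the rule does not take, numbered 73 in the table. Of these 30 rose and 0 fell, with a median log2 change of 0.89. Over all 4619 genes tested 10.6% rose and 18.7% fell, with a median of -0.16. The list was chosen with earlier results of these data known. Small subunit factors gave 7 rises among 23, of which the RNA helicase Ddx21 (2.24, limma adjusted p = 8.03e-05), Pno1 (2.96) and Cirh1a (1.59) had the smallest adjusted p, the rule for the genes named here. Large subunit factors gave 13 among 30, with the AAA ATPase Mdn1 at 2.18, Mak16 at 2.65 and Urb1 at 1.81. Factors of snoRNPs and of precursor processing gave 7 among 13, with Pop5 (2.44) and Pop1 (2.25), subunits of RNase MRP and RNase P, and Gar1 (2.16), a partner of Dkc1. Pol I transcription genes gave 3 among 7, the shared polymerase subunits Polr2l (1.71) and Polr2f (1.03) and the nucleolar protein Tcof1 (0.87). Of the genes counted as rises here, Pno1, Mak16, Pop5, Pop1, Gar1, Ccdc86, Ppan, Rcl1 and Bysl had control means under 10. They passed the filter only through the knockdown libraries, so their calls support nothing. The counts of rises above include them.

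Few footprints lay on the leaders of these mRNAs, and their number was higher in the knockdown libraries. Over all 48 genes the leaders held 146 and 145 whole reads in the controls and 440 and 438 in the smaller knockdown libraries. As a share of the members' reads this was 4.52% and 5.84% in the controls and 7.68% and 13.03% in the knockdown libraries. Over the whole table the share was 11.6% and 13.7% in the controls and 20.0% and 32.4% in the knockdown libraries. The share was higher in both knockdown libraries than in both controls, for the members and for the table, and in each library it was lower among the members. It was highest in knockdown replicate 2.

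**Figure D3:**
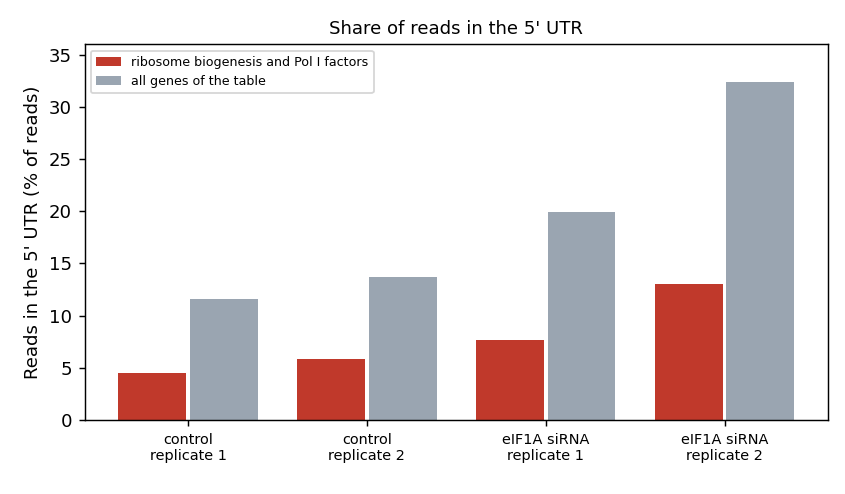
Share of reads that lie in the 5' UTR, in percent of 5' UTR and coding reads, for the 48 genes together (red) and all genes of the table (grey) in each of the 4 libraries, 1 bar per library with no error bar. The members lie at 4.52% to 13.03% and the whole table at 11.6% to 32.4%.

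The lowest value in each library is worth 1 read and may stand for 0 reads, so leaders at that value carry no level. That was so in all 4 libraries for 13 of the 48 genes (27.1%), among them Mybbp1a, Nop56, Tsr1, Pwp2 and Utp14a, and for 17.6% of all genes. Of these 13 genes 11 rose in coding reads, with a median log2 change of 1.29, and of the 35 with leader reads 18 rose, with a median of 1.10. The same split over all genes gave 136 rises among 858 without leader reads and 352 among 3761 with them, with medians of 0.05 and -0.20. In whole reads, uncorrected for library size, the leader had more reads in both knockdown libraries than in both controls in 21 of the 48 genes (32.8% of all genes) and fewer in 0 (15.5% of all genes).

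The leader level passed the filter in 13 genes. Of these 12 had a control mean under 10 and passed only through the knockdown libraries, so the 12 calls of a rise among the 13, with 0 falls, support nothing, and their levels are given below with no p. Over all 2101 leaders tested 44% rose and 2.81% fell. Both knockdown levels exceeded both control levels in all 13, as in 67.4% of all leaders tested, and lay below them in 0, against 7.19%.

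**Figure D4:**
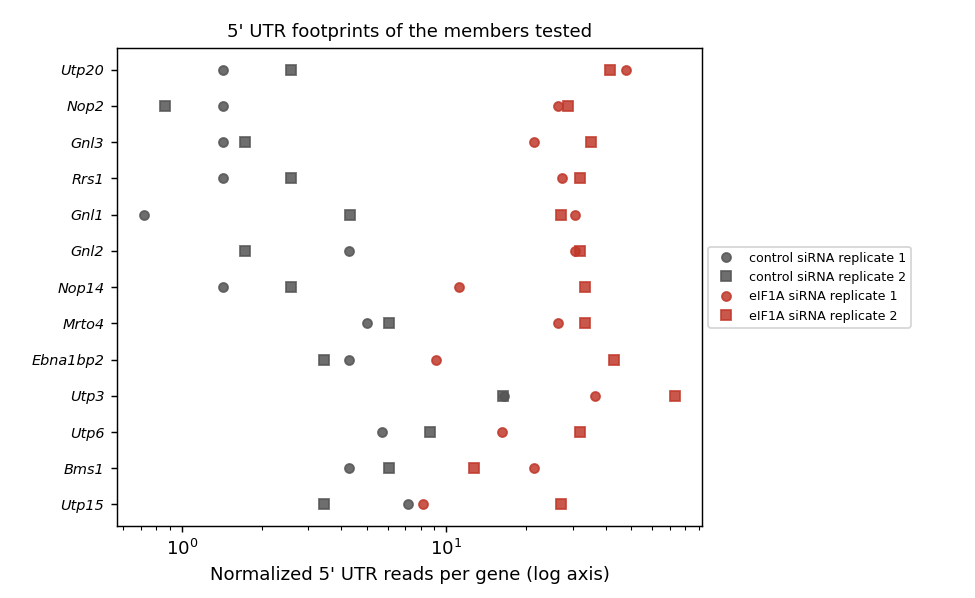
Normalized 5' UTR reads on a log axis for the 13 genes whose leader could be tested, with grey symbols for control siRNA and red for eIF1A siRNA (circles, replicate 1; squares, replicate 2). Utp20, Nop2, Gnl3, Rrs1, Gnl1 and Gnl2 lie under 5 in the controls and above 20 in the knockdown libraries, and Utp3 starts from 16.5 and 16.4.

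The leader of Utp20 went from 2 and 3 whole reads in the controls to 47 and 26 in the knockdown libraries. At equal scaling this is 23.2 times higher (95% counting interval 9.48 to 73.4), or 37.5 times (12.3 to 186) with 1 read taken from every value. The leader of Nop2 went from 2 and 1 reads to 26 and 18, which is 23.3 times higher (7.46 to 117), or 66.6 times (11.3 to 2692) with 1 read less. The intervals of these leaders overlap widely. They cover counting error only, in leaders that passed the filter through their knockdown reads, so they do not test a rise. The median leader change of all genes tested was 1.09 on the log2 scale. Utp20 and Nop2 also rose in coding reads.

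Rrs1 went from 2 and 3 leader reads to 27 and 20 (14.9 times, interval 5.95 to 48.0) and Gnl3 from 2 and 2 to 21 and 22 (17.0 times, 6.20 to 65.4). Gnl1 had 1 and 5 leader reads in the controls and 30 and 17 in the knockdown libraries (12.4 times, 5.30 to 35.6). Gnl2 had 6 and 2 against 30 and 20 (9.91 times, 4.66 to 24.2). The 3 Gnl genes and Rrs1 thus started from 6 reads or fewer per control, and their intervals carry the limit given for Utp20 and Nop2.

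Utp3 was the only member whose control leader level alone passed the filter. It had 16.5 and 16.4 normalized leader reads in the controls and 36.6 and 73.4 in the knockdown libraries. Its leader rose by 1.60 on the log2 scale (limma adjusted p = 0.00646). Over all leaders tested the median change was 1.09 and 44% rose. The Utp3 call was lost with TMM factors, quantile normalization and DESeq2, and also when either control was left out. The leader change of Utp3 ran from 0.51 to 2.09 over the alternative runs. Mrto4 had 5.02 and 6.05 against 26.4 and 33.5, and Nop14 had 1.43 and 2.59 against 11.2 and 33.5. The remaining leaders past the filter had log2 changes of 2.12 (Ebna1bp2), 1.57 (Utp6), 1.52 (Bms1) and 1.41 (Utp15). Below the filter, the leader of Nol11 went from 1 and 1 whole reads to 14 and 10, that of Heatr1 from 1 and 1 to 5 and 9, and that of Rrp12 from 1 and 1 to 3 and 7.

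With TMM factors of the 5' UTR reads, which bring the median leader change of all genes from 1.09 to 0.03, 8 of the 13 were called higher. Over all genes this scaling gave 412 rises and 423 falls in place of 924 and 59. The share of leader reads in the whole table differed between the knockdown libraries (20.0% and 32.4%), and its part in these values was not tested.

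The ratio of leader to coding reads asks whether a leader moved more than the coding region behind it. It was computed for the same 13 genes, 12 of which entered through high leader levels in the knockdown libraries, so it carries the same limit and is given with no p except for Utp3. It was called higher in 3 of the 13 and lower in 0, while over all 1907 genes tested 20.5% rose and 0.0524% fell, so the members' share was close to the background. The called genes were Gnl1, with a log2 change of the ratio of 3.32 ± 0.78 (SE), Gnl2 with 2.39 ± 0.78 and Utp20 with 2.23 ± 0.76. Their coding changes were -0.02, 0.69 and 1.72, of which that of Utp20 passed the test. In Mrto4 the leader and coding changes were 2.24 and 1.88, with a ratio change of 0.36 ± 0.80. Utp3, whose coding reads lay at 0, had a ratio change of 1.60 that did not pass (limma adjusted p = 0.107), and Utp6 and Bms1 both had changes of 1.57. Without control replicate 1 or 2 limma called 0 of the 13 and 0% of all genes higher, with 1 member at an unadjusted p under 0.05 in each case. Without knockdown replicate 1 it called 10 of the 13 and 61.0% of all genes.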

How the data were processed

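The submitters' processing notes name the build mm10 and, with no versions, DESeq2, HTSeq, TopHat2, Bowtie and cutadapt, and filters are not given in the sources used here. The values are signal: per the file headers, the authors deposited normalized reads for the coding sequence and 5' UTR of every listed gene. All values (100%) were multiples of the worth of 1 read, within 0.001 reads, so whole reads were recovered, and 0 value columns were left unmapped.

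Each measure (coding level, 5' UTR level, their ratio) was tested across all genes as log2 of the value plus 1 with limma 3.58.1 in R 4.3.3 (empirical Bayes with a trend, Benjamini-Hochberg, threshold 0.05), for genes with a mean of at least 10 in each region used. Count tests on the recovered reads used edgeR 4.0.16, which called 612 genes higher and 905 lower in coding reads, and DESeq2 1.42.0. An exact permutation test of 2 against 2 libraries cannot go below p = 0.333. Counting intervals (95%, exact binomial) cover counting error only. The steps were tested on simulated data. The members and lists were chosen with earlier results of these data known. Full values are given for the genes of each role with the smallest adjusted p (up to 4) or the highest coding level, and for up to 8 leaders with the smallest adjusted p. Any other member may be named with its log2 change, and those given with more (Polr1b, Dkc1, Imp3, Nip7, Rrp9, Nop16, Pes1, Bop1, Gnl3l, the members at 0, and ratios that did not pass) were chosen after their values were seen.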

Additional observations from a re-analysis of the deposited data

How the results depend on the processing

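No member fell in any of the 3 measures under any alternative run, and none of the 29 genes that rose in coding reads changed sign. The count of 29 rises in coding reads became 18 of 28 genes tested with a mean of at least 50 (12.97% of all genes). The members' median coding change of 1.15 became 1.39 with DESeq2, 1.32 with TMM factors and with quantile normalization, 1.03 with a pseudocount of 5, and 0.89 to 1.41 with 1 library left out. For the leader, the count of 12 became 5 with DESeq2 (6.62% of all genes), 20 with no filter on low values (25.6%) and 6 to 12 with 1 library left out. Its median of 2.79 became 3.28 with edgeR, 3.15 with 1 read subtracted, 2.52 among genes with at least 26 reads in a control library (an alternative chosen after seeing the data), 2.19 with DESeq2, 1.88 with TMM factors, 1.84 with a pseudocount of 5, 1.502 with quantile normalization, 1.08 with no filter and 2.08 to 3.18 with 1 library left out. For the ratio, the count of 3 became 0 with quantile normalization in limma (0.157% of all genes, and 1 member at an unadjusted p under 0.05). That scaling removes the general rise of leaders by construction. The count for the ratio became 1 with a pseudocount of 5 (18.6%) and 9 with the replicate block (44.7%). Its median of 1.57 became 0.89 with a pseudocount of 5, 0.31 with no filter, 0.18 with quantile normalization and 1.11 to 2.11 with 1 library left out. With the replicate block 36 coding and 13 leader rises were called (16.2% and 55.7% of all genes), but the libraries share only a number: the differences between replicates 1 and 2 correlated between the groups across genes at 0.26 for coding and -0.06 for leader reads. The GC box was in 44.7% of member promoters from 100 bases before the start, in 64.6% of those of listed genes and in 31.5% of all. No leader and no ratio of a member reached a mean of 50. The causes were not tested, and depth limits the leader values, with 1 to 10 reads per control library in 12 of the 13 leaders tested.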
